A study of Mus musculus with 5 samples.

Results

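Glutathione S-transferases were followed in liver RNA of mice that had received chronic and then binge ethanol. The 10 genes described are Gsta2, Gsta3 and Gsta4 of the alpha class, Gstm1, Gstm2, Gstm3 and Gstm4 of the mu class, Gstp1 of the pi class, and Gstt1 and Gstt2 of the theta class. They were chosen by name, and every non-control probe whose RefSeq accession maps to one of the 10 symbols was taken, which gave 13 of the 41174 non-control probes on the array. Gsta3, Gstm1 and Gstp1 had 2 probes each, the Gsta4 probe was printed 10 times on each array, and the other probes were printed once.

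The study measured total liver RNA from 5 samples of male C57BL/6N mice, called livers 1 to 5, after an ethanol diet of 8 weeks and 3 ethanol binges of 5 g per kg. Each liver sample was labelled with Cy5 and hybridised on an array of its own against Cy3-labelled reference RNA. The labels call the reference a purchased assorted mouse total RNA and give its strain as C57BL/6N and its tissue as liver. Age, and whether the 5 samples came from separate animals, are not given in the sources used here. All 5 samples form 1 group, so each ratio below sets ethanol plus binge livers against that reference RNA. No control-diet sample was analysed here, and an effect of ethanol cannot be told apart from any other difference between these livers and the reference. Dyes were not exchanged on any array, so a dye effect of a probe cannot be told apart from a difference in RNA.

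Glutathione S-transferases join glutathione, the main thiol of the cell, to electrophilic compounds, which makes these compounds easier to export and less reactive. The soluble enzymes work as dimers and fall into classes by sequence, with related genes lying side by side on a chromosome. Hepatocytes hold large amounts of them, and several genes of the alpha and mu classes are known to respond to the receptor CAR and to the oxidant-responsive factor NRF2. In mouse liver the mu class enzymes are known to be more abundant near the central vein, where ethanol is also oxidised, and the pi class is more abundant in males.

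Promoter windows are shown for the genes with the lowest ratios, and for Gsta3, a gene of the same class as Gsta2 with a smaller difference. They come from RefSeq (GRCm38.p6), run from 250 bases before to 50 bases after the annotated start, and are written 5′ to 3′ on the strand of the gene. Capitals mark matches, on either strand, to the antioxidant response element core TGACNNNGC, the TATA box TATAAA and the CCAAT box CCAAT, and no matches overlapped. The Gsta2 window is chr9:78347096-78347395 (minus strand), Gstm3 chr3:107969125-107969424 (minus), Gstm1 chr3:108017769-108018068 (minus), Gstm4 chr3:108044810-108045109 (minus) and Gsta3 chr1:21240335-21240634 (plus).
Gsta2: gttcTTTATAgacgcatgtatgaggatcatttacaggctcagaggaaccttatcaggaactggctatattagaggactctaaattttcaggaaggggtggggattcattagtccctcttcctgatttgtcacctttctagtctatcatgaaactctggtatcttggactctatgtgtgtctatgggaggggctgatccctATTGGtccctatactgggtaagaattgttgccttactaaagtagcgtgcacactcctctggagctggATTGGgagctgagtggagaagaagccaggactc
Gstm3: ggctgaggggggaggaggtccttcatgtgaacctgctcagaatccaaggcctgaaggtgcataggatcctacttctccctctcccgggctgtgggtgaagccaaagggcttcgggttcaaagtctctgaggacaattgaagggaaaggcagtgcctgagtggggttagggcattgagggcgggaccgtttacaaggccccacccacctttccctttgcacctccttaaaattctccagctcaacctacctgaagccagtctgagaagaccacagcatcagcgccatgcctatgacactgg
Gstm1: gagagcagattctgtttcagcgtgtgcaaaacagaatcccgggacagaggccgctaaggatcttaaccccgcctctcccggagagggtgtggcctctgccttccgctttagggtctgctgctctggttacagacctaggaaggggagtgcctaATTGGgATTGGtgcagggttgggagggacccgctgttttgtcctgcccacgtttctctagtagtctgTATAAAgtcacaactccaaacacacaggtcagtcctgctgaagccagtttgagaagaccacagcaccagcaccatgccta
Gstm4: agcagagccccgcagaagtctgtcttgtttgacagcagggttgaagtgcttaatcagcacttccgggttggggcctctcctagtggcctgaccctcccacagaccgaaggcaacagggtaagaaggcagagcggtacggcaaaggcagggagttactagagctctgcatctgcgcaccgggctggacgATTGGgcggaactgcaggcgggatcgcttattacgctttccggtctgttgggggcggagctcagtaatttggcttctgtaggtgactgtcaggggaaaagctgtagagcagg
Gsta3: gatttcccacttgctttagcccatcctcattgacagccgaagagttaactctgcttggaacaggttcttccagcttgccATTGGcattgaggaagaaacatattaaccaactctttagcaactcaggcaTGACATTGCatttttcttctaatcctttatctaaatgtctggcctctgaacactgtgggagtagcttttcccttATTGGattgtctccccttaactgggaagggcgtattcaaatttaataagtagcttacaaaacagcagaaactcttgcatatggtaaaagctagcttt

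The table of promoters held 10 windows for 8 of the 10 genes, and Gsta4 and Gstt2 were not matched. The antioxidant response element core, the short sequence that NRF2 binds with a partner, occurred in 1 of the 10 windows, that of Gsta3, where it read TGACATTGC and began 121 bases before the start. Over all 32851 windows of the table, 12.4% held a match to it. The CCAAT box was found in 8 of the 10 windows, against 37.4% of all windows, and the TATA box in 2 of 10, against 13.6%. Gstm1 and Gstm4 have 2 windows each, which overlap in both genes, so these are not 10 separate sequences, and a CCAAT box was found for 6 of the 8 genes. The TATA match of Gsta2 lay 246 bases before the start and on the opposite strand. In the Gstm1 window printed above a TATA box began 30 bases before the start, while the Gstm3 window held none of the 3 motifs. These 2 windows were nonetheless the most alike among the genes, with 204 identical bases in a global alignment, or 68.0% of the window, against 52.3% to 62.3% for 29 pairs of windows from different classes. A match describes letters in a short window and does not show binding. Sequence outside the windows was not searched, so a window without a match does not show that its gene lacks the element.

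Livers stood below the reference for most of the tested probes of the 10 genes, by most for Gsta2, Gstm3 and Gstm1. Of the 13 probes, 12 could be tested, and 9 of these were lower in liver at an adjusted p below 0.05 (limma, Benjamini-Hochberg over all 31885 tested probes), where 11.5% of all tested probes were lower. None of the 12 was higher, where 16.2% of all tested probes were. By at least 2-fold at the same adjusted p, 5 probes of 4 genes were lower (Gsta2, Gstm3, both Gstm1 probes and Gstm4), against 0.32% of all tested probes. None of the 12 was higher by that rule, against 1.2% of all tested probes. The median log2 ratio was -0.56 over the 12 probes and -0.00 over all tested probes, and 12 of 12 means lay below 0, as did 50.5% of all tested probes. The remaining probe, Gstm2, had usable spots in 2 livers and was not tested.

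**Figure D1:**
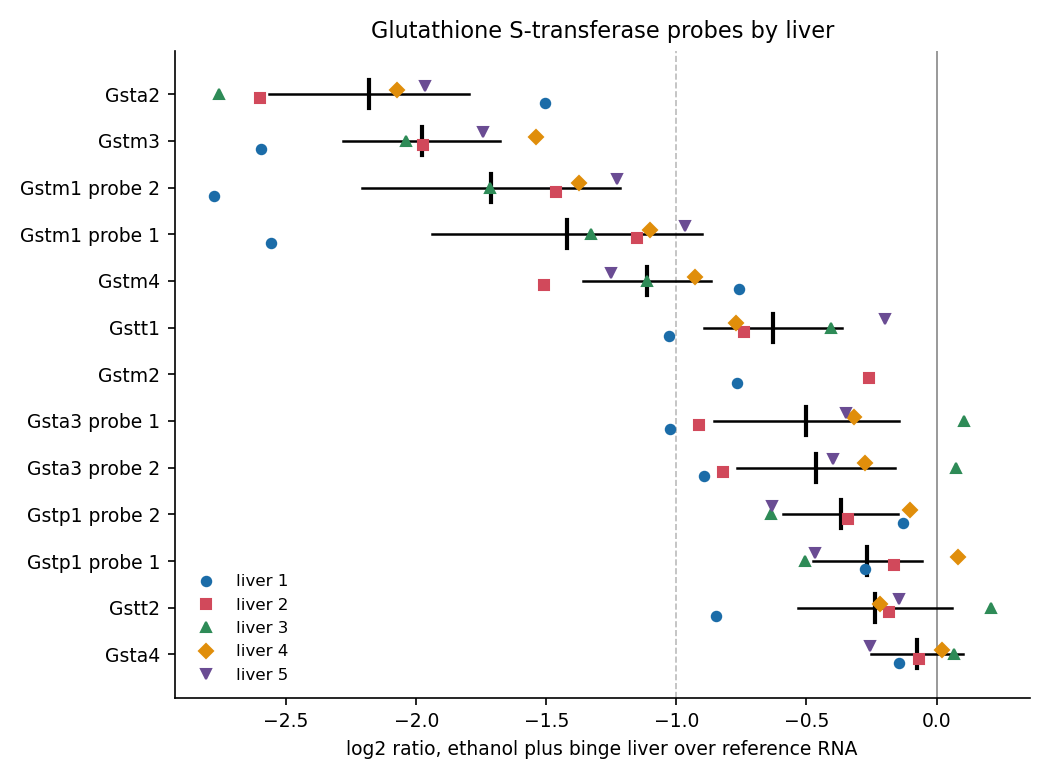
Log2 ratio of ethanol plus binge liver over reference RNA (horizontal axis) for the 13 probes, ordered by mean. Symbols are the 5 livers, thick ticks the mean and thin bars its 95% interval from limma, and the dashed line marks 2-fold lower; Gsta2, Gstm3 and both Gstm1 probes lie left of the other probes, and Gsta4 lies around 0.

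Gsta2 had the lowest mean ratio. This alpha class enzyme is known in mice for its induction by antioxidants. Its background-subtracted signal was 12, 52, 63, 72 and 46 scanner units in livers 1 to 5, against 147.5, 544, 577, 561 and 559 in the reference on the same arrays. Every liver value was thus far below its reference value, in signals that are not normalized between channels or arrays. The log2 ratios were -1.50, -2.60, -2.76, -2.07 and -1.97, with a mean of -2.18 ± 0.51 (SD, n = 5), or 4.53-fold lower, and a limma adjusted p of 0.000213. The liver signal was well above background on 4 of the 5 arrays, the exception being liver 1, and the mean without liver 1 was -2.35. The size of this difference changed with the processing. With an offset of 10 in place of 50 added to both channels the mean was -2.84, and the scanner software's processed signals, which differ in both background correction and normalization, gave -3.96 ± 0.80 (SD, n = 5), with its lowest value, -5.05, in liver 1, the liver with the highest value in the main setting.

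Gsta3, the alpha class enzyme that inactivates aflatoxin epoxide in mice, was lower by much less. Probe 1 had log2 ratios of -1.03, -0.91, 0.11, -0.32 and -0.35 in livers 1 to 5, with a mean of -0.50 ± 0.47 (SD, n = 5) and a limma adjusted p of 0.0439. Probe 2 had -0.89, -0.82, 0.08, -0.28 and -0.40, with a mean of -0.46 ± 0.40 and an adjusted p of 0.0327. Both probes gave the same order of livers, with livers 1 and 2 lowest and liver 3 slightly above the reference. In liver 3 the background-subtracted signal of probe 1 was 91132, against 69272 in the reference, while in liver 1 it was 26122 against 51619. The difference between the probes was -0.04 ± 0.08 (probe 1 minus probe 2, SD over 5 livers). Both calls were lost without liver 1, 2, 4 or 5, where limma adjusted p lay between 0.0775 and 0.121 for probe 1 and between 0.0626 and 0.103 for probe 2. With outlier spots kept the call of probe 1 was lost as well (adjusted p = 0.0507).

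Gsta4, which is known for conjugating 4-hydroxynonenal and other products of lipid peroxidation, had the smallest mean. Its log2 ratios were -0.14, -0.07, 0.07, 0.02 and -0.25 in livers 1 to 5, with a mean of -0.08 ± 0.13 (SD, n = 5) and a limma adjusted p of 0.50. The 95% interval of the mean, -0.25 to 0.10, leaves out a 2-fold difference in either direction. Between 6 and 10 of its 10 spots were usable on each array, and their SD within an array lay between 0.06 and 0.12. Of all tested probes, 28.0% had a smaller SD over livers than Gsta4, whose values are averages of several spots. For the other tested probes of the listed genes, printed once each, this share lay between 72.6% (Gstp1 probe 1) and 98.5% (Gstm1 probe 1).

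Of the 4 mu class genes listed, Gstm3, Gstm1 and Gstm4 were lower by at least 2-fold and Gstm2 was not tested. Without probe sequences, signal shared among transcripts of the mu class cannot be told apart, so these ratios may not be separate measurements. Gstm3 had a background-subtracted signal of 1938, 8363, 10496, 10272 and 8776.5 in livers 1 to 5, against 11934, 33317, 36263, 35758 and 40886 in the reference. The liver value lay below the reference value of the same array for all 5 livers, in signals that are not normalized between channels or arrays. The log2 ratios were -2.60, -1.97, -2.04, -1.54 and -1.74, with a mean of -1.98 ± 0.40 (SD, n = 5), or 3.94-fold lower, and a limma adjusted p of 9e-05. Across all 14 alternatives the mean stayed between -2.12 and -1.82.

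Gstm1, a mu class enzyme that is abundant in mouse liver, was lower by both of its probes. Probe 1 had a background-subtracted signal of 8689, 37516, 38779, 37258 and 33114 in livers 1 to 5, against 50251, 81812, 80245, 92034 and 88382 in the reference. Its log2 ratios were -2.56, -1.15, -1.33, -1.10 and -0.96, with a mean of -1.42 ± 0.65 (SD, n = 5), or 2.68-fold lower, and a limma adjusted p of 0.00463. Probe 2 had -2.78, -1.46, -1.72, -1.37 and -1.23, with a mean of -1.71 ± 0.62, or 3.28-fold lower, and an adjusted p of 0.00199. Liver 1 stood far below the other 4 livers with both probes, and without it the means were -1.14 and -1.44, both still called and past 2-fold. Probe 2 read lower than probe 1 in 5 of 5 livers, by 0.29 ± 0.06 (SD over livers), so the probes agreed on the order of livers but not on the size of the difference.

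Gstm4 was lower by 2.16-fold, with log2 ratios of -0.76, -1.51, -1.11, -0.93 and -1.25 in livers 1 to 5, a mean of -1.11 ± 0.29 (SD, n = 5) and a limma adjusted p of 0.000386. Here liver 1, the lowest liver for Gstm1 and Gstm3, was the highest. Gstm2 had log2 ratios of -0.77 in liver 1 and -0.26 in liver 2. In livers 3, 4 and 5 the Cy5 spot was marked as non-uniform by the scanner software and left out. With those spots kept its mean was -0.47 and its limma adjusted p 0.0104 (n = 5). The scanner software's log ratios, -0.81, -0.25, -0.69, -0.25 and -0.27 in livers 1 to 5, were all below 0 as well.

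**Figure D2:**
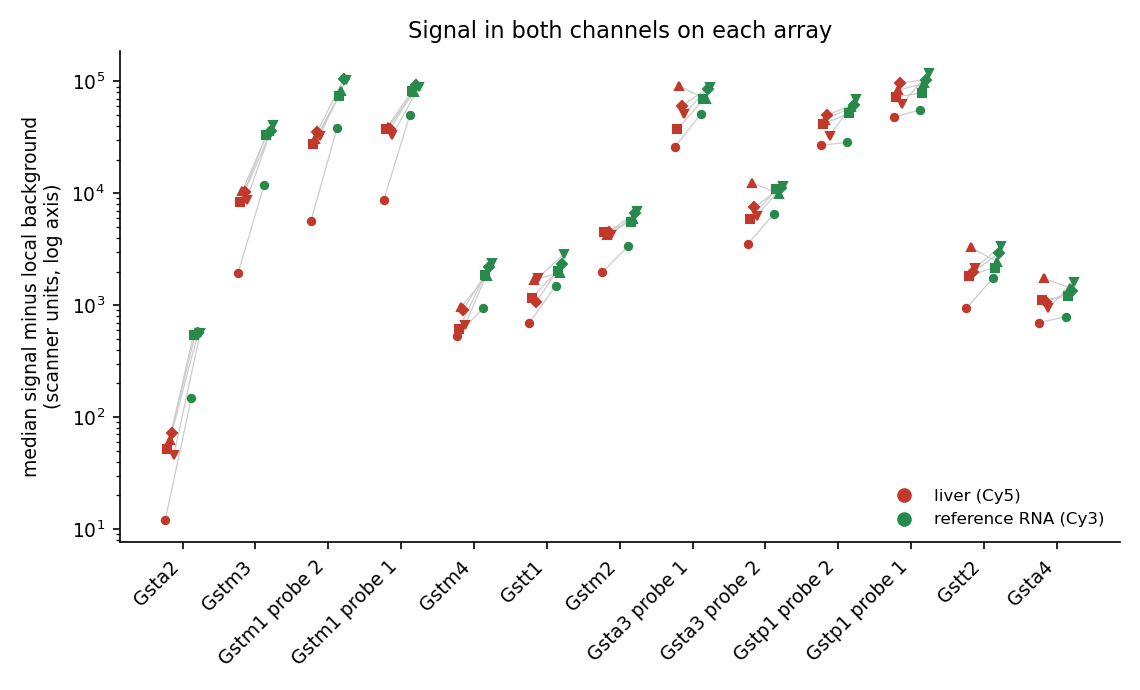
Median signal minus local background in scanner units (log axis) for the 13 probes, ordered by mean ratio. Red symbols are the liver channel and green symbols the reference channel of the same array, joined by a line, with 1 symbol shape per array as in the plot of ratios; for Gsta2, Gstm3 and both Gstm1 probes every liver value lies below every reference value, while the ranges of the channels overlap for the other 9 probes. The signals are not normalized between channels or arrays, and the share of all probes that separate this way is not given here. Levels of different probes cannot be set against each other.

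Gstp1, which encodes the pi class enzyme, differed little from the reference. Probe 1 had log2 ratios of -0.27, -0.17, -0.51, 0.08 and -0.47 in livers 1 to 5, with a mean of -0.27 ± 0.24 (SD, n = 5) and a limma adjusted p of 0.0596. Probe 2 had -0.13, -0.34, -0.64, -0.10 and -0.63, with a mean of -0.37 ± 0.26 and an adjusted p of 0.0232. Livers 3 and 5 were lowest with both probes, so Gstp1 did not share the low value of liver 1. Probe 1 passed the threshold with the scanner software's processed signals (-0.51, adjusted p = 0.00345), in the deposited ratios (adjusted p = 0.00376), with an offset of 10 (adjusted p = 0.0278) and without liver 4 (adjusted p = 0.0382). Probe 2 lost its call without liver 2, 3 or 5, at an adjusted p between 0.0599 and 0.0736. Gstp2, a close copy of Gstp1, had no probe of its own among the named ones, and the files hold no probe sequences, so signal shared between the copies cannot be told apart.

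Of the theta class, whose members act on small halogenated compounds, Gstt1 was lower and Gstt2 did not pass the test. Gstt1 had log2 ratios of -1.03, -0.74, -0.41, -0.77 and -0.20 in livers 1 to 5, with a mean of -0.63 ± 0.33 (SD, n = 5), or 1.55-fold lower, and a limma adjusted p of 0.00571. All 5 livers were below the reference, and the call held in all 14 alternatives. Gstt2 had -0.85, -0.18, 0.21, -0.22 and -0.15, with a mean of -0.24 ± 0.38, a 95% interval of -0.53 to 0.06 and an adjusted p of 0.201. Its low mean rested on liver 1, without which it was -0.08.

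In order of the mean ratio, lowest to highest, the tested genes ran Gsta2, Gstm3, Gstm1, Gstm4, Gstt1, Gsta3, Gstp1, Gstt2 and Gsta4. The difference between neighbouring genes was mostly smaller than its spread over livers. Gstm3 stood above Gsta2 by 0.20 ± 0.75 (SD, n = 5) and in 4 of 5 livers, the exception being liver 1, where the Gsta2 liver signal was not well above background. With the scanner software's processed signals Gstm3 was above Gsta2 in 5 of 5 livers, with means of -2.09 for Gstm3 and -3.96 for Gsta2. Gstm4 stood above Gstm1 probe 1 by 0.31 ± 0.87 and in 3 of 5 livers, the gap being widest in liver 1. Gstt1 stood above Gstm4 by 0.48 ± 0.53 and in 4 of 5 livers. The ends of the order were apart, since every liver was below -1.5 for Gsta2 and Gstm3 and above -0.3 for Gsta4.

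The livers did not rank alike over the genes. Liver 1 had the lowest ratio for 7 of the 12 probes with values in all livers (Gsta3, Gstm1 and Gstt1 among them) and the highest for Gstm4. It was also highest for Gsta2, but from a liver signal not well above background, and was the lowest there with processed signals. Liver 3 was highest for both Gsta3 probes, Gsta4 and Gstt2 and lowest for Gsta2 and both Gstp1 probes. The median over the probes with a value was -0.89, -0.82, -0.57, -0.55 and -0.55 in livers 1 to 5, where the median of all tested probes lay between -0.00 and 0.01. Gstm2 enters the medians of livers 1 and 2 only, so the livers are not set side by side on the same probes. The array of liver 1 was also the dimmest, with the lowest background-subtracted signal in the liver channel and in the reference channel for 13 of 13 probes. It was dimmest over all probes too, with a median of 83 in the liver channel and 106 in the reference channel, against at least 119 and 144 on the other arrays. The part of this dimness in the low ratios of liver 1 was not tested. Pericentral hepatocyte markers were lowest in liver 1 for 7 of 11 probes with a value there, with Oat at -2.07. These include both Cyp1a2 probes, which had values in livers 1 and 2 only and were not tested. Liver 1 was also lowest for 5 of 9 Kupffer cell probes, 3 of 5 red blood cell probes and 3 of 6 probes for other organs. The count was 4 of 9 for sinusoidal endothelium, 1 of 4 for neutrophils, 1 of 4 for kidney and 1 of 7 for general hepatocyte markers. For stellate cells it was 0 of 9 and for bile duct cells 0 of 8, so liver 1 was not lowest throughout. The share over all tested probes is not given here. Over the pericentral marker list, 8 of 9 tested probes lay below 0 and 2 of the 9 passed the test as lower. Of all tested probes, 50.5% lay below 0 and 11.5% were lower. The rest of this comparison concerns the zonal lists. The summed processed signal of the pericentral list lay between 170500 and 303400 in livers and between 232000 and 357500 in the reference. Periportal markers were lowest in liver 1 for 2 of 6 probes, and 3 of 5 tested ones were lower, with sums of 124200 to 216400 in livers and 216800 to 334800 in the reference. The part of zonal gene expression in these ratios was not tested.

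**Figure D3:**
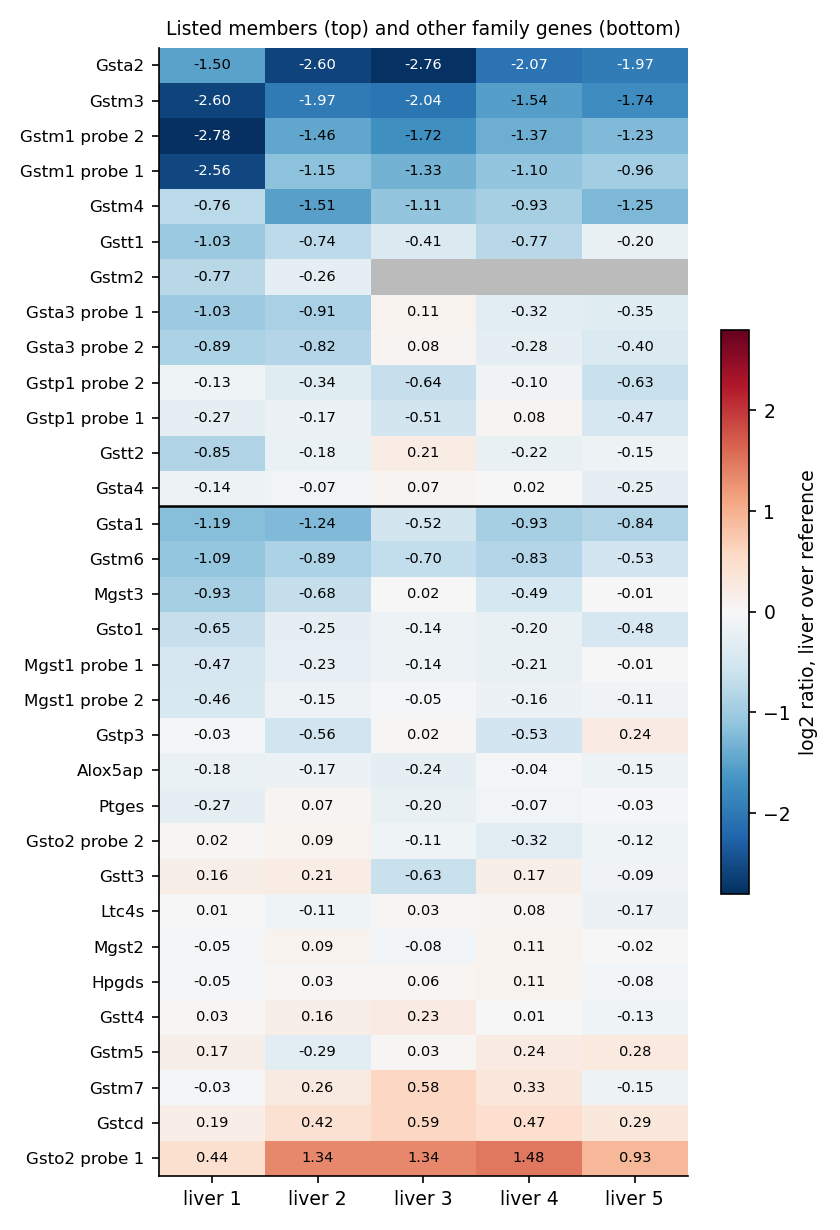
Log2 ratio of liver over reference RNA in each of the 5 livers (columns) for the 13 probes of the listed genes, above the line, and for 19 tested probes of other family genes, below it. Blue is lower and red higher in liver, grey marks spots left out; the lowest values stand in the rows of Gsta2, Gstm3 and Gstm1, and Gsto2 probe 1 is the single row with a mean above 1.

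Among other genes of the family no probe was lower by 2-fold, and a single probe, of Gsto2, was higher by 2-fold. Gsta1 and Gstm6 had lower means than the listed genes Gstt1, Gsta3, Gstp1, Gstt2 and Gsta4. Of 21 probes, 19 were tested, and the median log2 ratio was -0.09. At an adjusted p below 0.05, 3 were lower and 2 higher, against 11.5% and 16.2% of all tested probes. This list also counts Mgst1, Mgst2, Mgst3, Ptges, Alox5ap and Ltc4s, which are outside the soluble classes, and none of their probes passed the test. Gsta1, the close relative of Gsta2 whose transcript may share signal with it, was lower at -0.94 ± 0.29 (SD, n = 5, limma adjusted p = 0.000675). Gstm6 was lower at -0.81 ± 0.21 (adjusted p = 0.000778). Gsto1, an omega class enzyme, was lower at -0.34 ± 0.21 (adjusted p = 0.0209). Gstcd, a gene with a glutathione S-transferase-like domain, was higher at 0.39 ± 0.15 (adjusted p = 0.00771). Gsto2 was higher by 1 probe, at 1.11 ± 0.43 (adjusted p = 0.00134), while its other probe lay at -0.09 (adjusted p = 0.417). The membrane-bound enzyme Mgst1, from an unrelated family with the same activity, was at -0.21 and -0.18 by its probes, and neither passed the test.

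Family genes that lie side by side did not all have the same ratio. Along chromosome 3 the mu class genes follow in the order Gstm5, Gstm7, Gstm6, Gstm3, Gstm2, Gstm1 and Gstm4. The first pair, Gstm5 at 0.09 (adjusted p = 0.534) and Gstm7 at 0.20 (adjusted p = 0.208), did not pass the test, whereas Gstm6, Gstm3, Gstm1 and Gstm4 were lower. Along chromosome 9 the order is Gsta4, Gsta1 and Gsta2, with means of -0.08, -0.94 and -2.18. On chromosome 10, Gstt3 at -0.04 and Gstt4 at 0.06 lie beside Gstt1 and Gstt2 and did not pass the test.

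Genes that supply, recycle or use glutathione were also examined. Beside the counts that follow, 11.5% of all tested probes were lower and 16.2% higher. Of 23 tested probes for its synthesis, breakdown and transport, 8 were lower and 1 higher, with a median log2 ratio of -0.15. The lowest were Gclc, the catalytic subunit of the rate-limiting enzyme of glutathione synthesis, at -0.77 ± 0.54 (SD, n = 5, limma adjusted p = 0.0159), and the exporter gene Abcc4 at -0.65 and -0.69 by its probes. Gss, which encodes the enzyme that completes glutathione, was higher at 0.35 ± 0.14 (adjusted p = 0.0118). Of 21 tested probes for peroxidases, reductases and other users of glutathione, 9 were lower and 1 higher, with a median of -0.22. G6pdx, which supplies NADPH, was lower at -0.75 ± 0.30 (adjusted p = 0.00238), as was Hagh, an enzyme of methylglyoxal removal, at -0.68 ± 0.38 (adjusted p = 0.0066). A probe of Esd was higher at 0.17 (adjusted p = 0.047) while another was lower at -0.38 (adjusted p = 0.0131).

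Among 18 tested probes for other enzymes, sensors and transporters linked to CAR or NRF2, 12 were lower and 2 higher, with a median of -0.41. The shares over all tested probes were 11.5% and 16.2%. Cyp2a5, a P450, was lower at -1.62 and -1.72 by its probes, with livers between -3.35 and -0.39, and Cbr3, a carbonyl reductase, at -1.17 ± 0.67 (limma adjusted p = 0.00846). The higher ones were Cyp2b10, the P450 named in the study's title, at 0.94 ± 0.33 (SD, n = 4, adjusted p = 0.00206), and Por, the P450 reductase, at 0.26 ± 0.19 (n = 5, adjusted p = 0.0451). Cyp2b10 thus had the opposite sign to the 9 lower probes of the listed transferases on the same arrays. Nqo1, a standard NRF2 target, was lower at -0.42 ± 0.13 (adjusted p = 0.0025), and Nfe2l2, which encodes NRF2, at -0.40 and -0.40 by its probes.

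For each probe past 2-fold, the 3 probes of other genes with the nearest profile were found among those whose signal passed the background limit on every array in liver and reference alike, by root mean square difference of log2 ratios over the 5 livers. This describes level and shape together and is based on 5 points. For Gstm3 they were Gstm1 (0.37), Myh6 (0.38) and Pltp (0.52), of 16209 probes compared. Signal shared between Gstm1 and Gstm3 could not be checked, and its part in their likeness was not tested. Another Myh6 probe read 0.47, so that gene's low ratio was not shared by its probes. Gstm1 probe 2 was nearest to Gstm3 (0.37), Pltp (0.41) and Hamp2 (0.43), and Gstm1 probe 1 to Ces1e (0.34), Hamp2 (0.35) and H2-Ab1 (0.39). Gstm4 was nearest to Ces2c (0.18), Depp1 (0.22) and Olfr1160 (0.23). The nearest profile to Gsta2 was that of Gstm3 at 0.70, a distance that includes the liver 1 value, where Gsta2 was not well above background.

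Over the whole series, the correlation of log2 ratios between any pair of livers lay between 0.42 and 0.78 across probes, which are not independent replicates. The share of non-control spots well above background was 77.3% to 81.2% for liver RNA and 69.9% to 78.4% for reference RNA, and no spot was saturated. Of 8 tested probes for general hepatocyte markers, 3 were higher in liver and none was lower, against 16.2% and 11.5% of all tested probes. By at least 2-fold 2 were higher, against 1.2%. The 3 higher ones were Ahsg at 1.72 ± 0.33 (SD, n = 5, limma adjusted p = 8.69e-05), Alb at 1.15 ± 0.42 (adjusted p = 0.00113) and Apoa1 at 0.94 ± 0.29 (adjusted p = 0.000708). All 3 are secreted plasma proteins, and their direction was opposite to that of the called transferase probes. The other hepatocyte probes did not pass the test, namely Hnf4a at -0.001, -0.095 and -0.033, Tat at -0.56 and Ttr at 0.23. Over the 8 probes 4 means lay below 0, and the median log2 ratio was 0.115. The background-subtracted Alb signal lay between 142800 and 203400 in livers and between 75080 and 92360 in the reference. The Y-linked probes for Ddx3y, Eif2s3y, Kdm5d and Uty had signal well above background from livers and reference on every array, with mean log2 ratios between -0.15 and 0.14. The Xist probe was not well above background in either RNA. Markers of Kupffer cells had 4 of 8 tested probes lower, with a summed processed signal of 10300 to 20540 in livers and 14370 to 21010 in the reference. Red blood cell markers had 2 of 4 lower, with sums of 8965 to 31590 in livers and 22570 to 32670 in the reference. Lower probes numbered 2 of 9 for sinusoidal endothelium, 3 of 9 for stellate cells, 2 of 8 for bile duct cells and 0 of 4 for neutrophils. Of all tested probes 11.5% were lower, and each of these cell lists holds few probes. The part of these cells in the transferase ratios was not tested. In whole liver RNA, fewer cells of a type and less RNA per cell cannot be told apart.

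**Figure D4:**
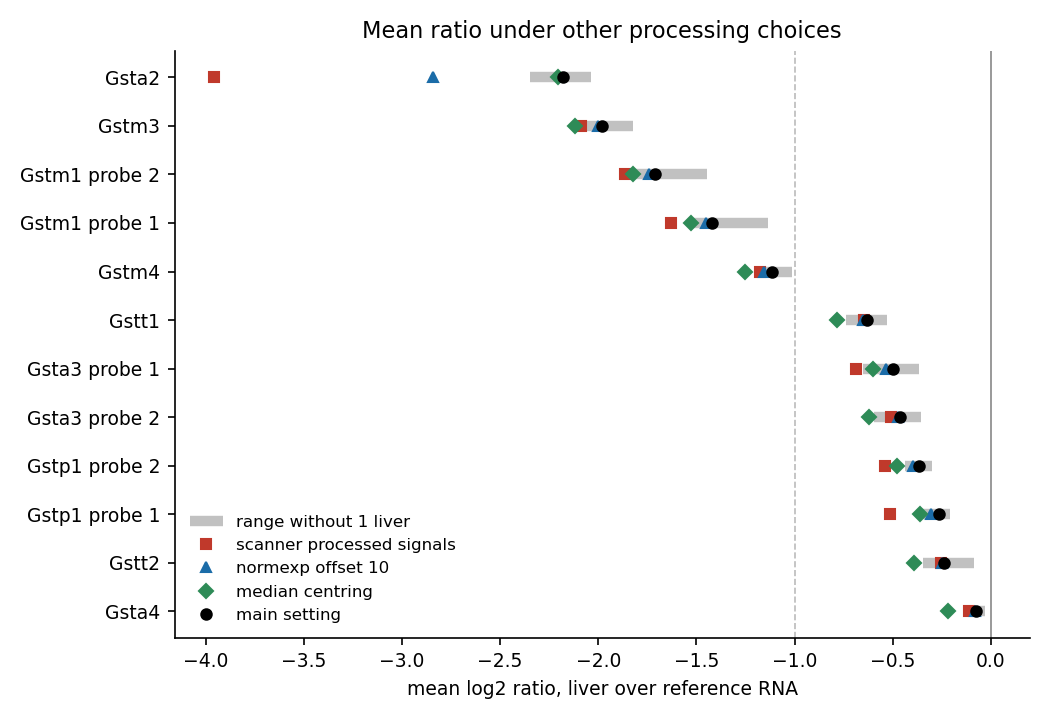
Mean log2 ratio of liver over reference RNA (horizontal axis) for the 12 tested probes under the main setting (black) and under the scanner software's processed signals, a smaller offset and median centring. Grey bars span the 5 means that each leave out 1 liver, and the dashed line marks 2-fold lower; Gsta2 moves most between settings, from -2.18 in the main setting to -3.96 with processed signals.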

How the data were processed

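Per the file headers, the authors scanned 2-colour arrays and extracted spot intensity values with Agilent Feature Extraction 11.5.1.1. The same deposited files hold processed intensities and their log10 ratio. The deposited log2 table matched the processed ratios within 0.001 for 99.7% of values, which gives its scale and direction.

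Median intensities were background-corrected with normexp (offset 50) and loess-normalized within arrays in limma 3.58.1 (R 4.3.3), with control and outlier spots at weight 0 and then left out. Spots of a probe were averaged. Probes were named by RefSeq accession (24375 of 41174 matched). Tested probes had 3 or more values and were well above background, for liver or reference, on 3 or more of the 5 arrays. The mean log2 ratio was tested against 0 across all 31885 such probes (eBayes with trend and robust prior, two-sided, Benjamini-Hochberg). Nothing says that the samples came from separate animals, so p-values reflect the spread among 5 samples, possibly technical, and not that of the reference. The fit was checked on data with known changes. The number of arrays limits the precision.

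Each array had its own slide, and all shared 1 scan day. Named genes of other lists are the called members with the 2 lowest and 2 highest means; Cyp2b10's opposite sign, Nqo1, Nfe2l2, Gsto1, Gstm5, Gstm7, Gstt3, Gstt4 and Mgst1, and the zonal, hepatocyte and sex-linked markers, were picked from the lists after their values were seen. Members and lists were chosen with earlier results of these data known.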

Additional observations from a re-analysis of the deposited data

Results flagged for a closer look

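Gstm1 probe 1 had a log2 ratio of -2.56 in liver 1, and the nearest other liver was liver 3 at -1.33. This gap was 0.77 of the range over the 5 livers, above the 0.71 that Dixon's test sets for 5 values. Chance flags about 1 in 20 such groups, and 12 probes were examined. Probe 2 of the same gene had its lowest value in the same liver, at -2.78, and did not pass that limit. Without liver 1 the mean of probe 1 was -1.14 and still called.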

How the results depend on the processing

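The 12 tested transferase probes kept their sign under every one of the 14 alternatives in which they were tested. Gsta2 could not be tested under the filter on both channels. Between 6 and 8 of the probes were lower when 1 liver was left out, against 9 with all livers, and 5 stayed lower by 2-fold each time. Among these 12 probes, the calls that were lost or gained concern Gsta3 and Gstp1 and are given above. Gstm2, not tested in the main setting, was called lower with outlier spots kept (-0.47, limma adjusted p = 0.0104). In the deposited ratios it was called lower too (-0.45, limma adjusted p = 0.0102). Over all probes, the 2-fold counts of 102 lower and 382 higher became 323 and 1159 with the scanner software's processed signals and 321 and 1163 in the deposited table, and the cause was not tested. Without 1 liver, where fewer samples enter each fit, between 1916 and 2896 probes were lower and between 3016 and 4828 higher at any size. Both counts were lowest without liver 4, and with all livers they were 3681 and 5160. Dim probes are limited by the offset, as for Gsta2. A block for slide or scan day was not run, since each slide held 1 array and all were scanned on 1 day. No paired analysis was possible because the samples form 1 group.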
